A study of Mus musculus with 7 samples.

Results

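The HoxA interval is the stretch of mouse chromosome 6 at chr6:51600001-52800000 (build mm9) that holds the HoxA cluster, taken as chr6:52100001-52220000, with a low flank of 500 kb and a high flank of 580 kb. Its members were all peaks of 3 ChIP-seq (chromatin immunoprecipitation and sequencing) lists whose midpoint fell in it: 26 of 33915 Shox2 limb peaks, 7 of 15091 Shox2 palate positions and 26 of 33915 Pbx limb peaks, 59 of 82921 in all. The list of co-occupied regions added 11 of its 8999, and each of these 11 was a Shox2 limb peak that overlapped a Pbx peak, so it is no separate measurement. Peaks became members by position alone. The interval, its stretches and the lists were, however, chosen with earlier results of these data known.

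The tissue was freshly dissected from mouse embryos at E12.5 (embryonic day). Shox2 was precipitated from limb and from palate of embryos whose Shox2 protein carries an HA tag, with an antibody against HA, and Pbx was precipitated from limb with an antibody against Pbx. The sources used here do not give the genotype of the embryos behind the Pbx library, or whether embryos were pooled. Each group had 1 library, so no value has a replicate error. Not analysed here were 4 further libraries: limb Shox2 at E13.5, Shox2 from mixed limb and palate, and the controls (anti-HA in untagged embryos, and input). The sources disagree on the untagged control. The series text calls it Shox2+/+, but its label gives its sample type as Shox2-HA. The peaks below were therefore not set against regions enriched in a control.

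Hox genes encode homeodomain transcription factors and lie on the chromosome in the order in which they are used along the body axis. In the limb, the posterior genes Hoxa9 to Hoxa13 pattern the segments from shoulder to digits: Hoxa11 is needed with its HoxD partner for the forearm, and Hoxa13 for the hand and foot. Pbx proteins are TALE-class homeodomain factors that often bind DNA as partners of Hox proteins. Shox2 is a homeodomain factor needed for part of the limb skeleton and for the palate. In the RefSeq gene order of GRCm38, used only for neighbours, the Hoxa genes run with the posterior genes at the high-coordinate end. Skap2, an adaptor protein gene, lies on the low side of the cluster, and Evx1, a homeobox gene, then Hibadh and Tax1bp1 follow Hoxa13. No gene positions of build mm9 were used here, so peaks are placed by position and not assigned to an exon, an intron or a promoter.

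Promoters could be read for 9 of the Hoxa genes from RefSeq (GRCm38.p6), and 3 of them are shown, from both parts of the gene row. They are Hoxa2, an anterior gene, and Hoxa9 and Hoxa13, the first and last of the posterior genes. Hoxa2 was the only gene of the 9 with a match to TGATNNAT, so it does not stand for the genes between it and Hoxa9. Each sequence shown is the 250 bases before the gene's start on the minus strand. Capitals mark matches, on either strand, to TGATNNAT (a Pbx and Hox composite) or TGACAG (the Meis type, of the same TALE class as Pbx). Their positions are in GRCm38.p6 and cannot be set beside the mm9 positions of the peaks.
Hoxa2, chr6:52164832-52165081: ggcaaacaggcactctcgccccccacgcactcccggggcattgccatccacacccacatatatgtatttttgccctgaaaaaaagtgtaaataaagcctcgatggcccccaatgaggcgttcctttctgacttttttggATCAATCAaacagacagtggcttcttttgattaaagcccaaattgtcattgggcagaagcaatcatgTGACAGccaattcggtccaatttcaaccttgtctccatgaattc
Hoxa9, chr6:52227371-52227620: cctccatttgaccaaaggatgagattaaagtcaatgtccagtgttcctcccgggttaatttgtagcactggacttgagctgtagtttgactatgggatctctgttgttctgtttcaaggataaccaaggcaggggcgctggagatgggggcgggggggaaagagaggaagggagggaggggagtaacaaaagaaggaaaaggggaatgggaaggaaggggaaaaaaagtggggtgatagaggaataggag
Hoxa13, chr6:52260881-52261130: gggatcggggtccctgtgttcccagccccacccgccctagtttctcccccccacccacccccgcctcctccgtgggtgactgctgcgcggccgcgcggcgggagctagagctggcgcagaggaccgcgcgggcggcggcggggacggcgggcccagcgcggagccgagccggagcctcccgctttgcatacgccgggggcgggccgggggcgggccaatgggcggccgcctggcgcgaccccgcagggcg

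Of the 10 promoters of these 9 genes, that of Hoxa2 held 1 match to TGATNNAT and 1 to TGACAG, and that of Hoxa3 held 1 match to TGACAG. The promoters of Hoxa5, Hoxa6, Hoxa7, Hoxa9, Hoxa10 (both of its promoters), Hoxa11 and Hoxa13, and that of Evx1, held neither, and none of the 11 held TAATTA, a site type of paired-like homeodomains such as Shox2. Over all 32851 promoters of the table, 7.68% held TGATNNAT, 15.9% held TGACAG and 4.84% held TAATTA in the same 250 bases. These are matches of letters in a window, and no peak was placed on them.

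The HoxA cluster carried a Pbx peak of 10900 bp, the second widest of the whole Pbx list. It lay at chr6:52110353-52121252, in the anterior, low-coordinate part of the cluster. Of all 33915 Pbx peaks, 2 (0.0059%) were at least 10000 bp wide, this peak and a peak of 15052 bp elsewhere, and the third widest measured 9303 bp. The median Pbx peak had 897 bp. The broad peak stood at line 476 of its list, within the first 1.4% of lines. The lists hold no heights or scores, so how strong the signal was within these 10900 bp, and whether the caller joined neighbouring summits, could not be read from them.

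The other Pbx peaks of the cluster were of more common size. A peak of 1919 bp lay at chr6:52133954-52135872, with 6.13% of the list at least as wide, and a peak of 991 bp lay at chr6:52147034-52148024, low in the list at 93.2% of its lines. Together the 3 peaks covered 13.8 kb, or 11.5% of the cluster, against 2.48% of the low flank and 3.08% of the high flank. Among 17213 windows of 120 kb with any peak, 126 (0.732%) had more bases in Pbx peaks than the cluster window, and the median window had 1130 bp. Without the broad peak the cluster would have had 2910 bp, a value exceeded by 4024 windows (23.4%). By number of peaks the cluster was less unusual, since 17.8% of windows held more than its 3 Pbx peaks.

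Limb Shox2 occupied the cluster with 4 narrow peaks. The peak at chr6:52111056-52111232 was 177 bp wide and lay inside the broad Pbx peak, with its start 703 bp above the low edge of that peak. Its centre was 4658.5 bp from the Pbx centre, the largest such distance among all 8999 co-occupied sites, where the median was 142 bp. Such a distance is bounded by the widths of both peaks, and this was the widest Pbx peak that overlapped a Shox2 limb peak. The next were a peak of 223 bp at chr6:52124698-52124920 and a peak of 183 bp at chr6:52128400-52128582, between the broad Pbx peak and the next, 3445 and 5371 bp from the nearest Pbx peak. The last, of 173 bp at chr6:52204665-52204837, was the single peak of any list in the high-coordinate part of the cluster.

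All 4 were narrower than the list's median of 261 bp (0 of 4 wider, against 49.9% of the whole list, a count that with 4 peaks allows a share of up to 75.0%). They stood at 37.7, 45.9, 51.9 and 79.1% of the list's lines. At 3.33 Shox2 limb peaks per 100 kb the cluster was denser than both flanks together, at 2.04, while the Pbx values were 2.50 and 2.13 per 100 kb. With both limb lists cut to the length of the palate list, the order for Shox2 turned round. The cluster then had 0.833 per 100 kb (1 peak) and the flanks 1.48 (16 peaks). The cut kept the first lines of each limb list in file order, which no source states to be a ranking. Early lines did hold wider peaks. Median width was 514 bp in the first 10% of Shox2 limb lines and 205 bp in the last. For Pbx the values were 1410 and 690.5 bp. No test was run on these densities.

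**Figure D1:**
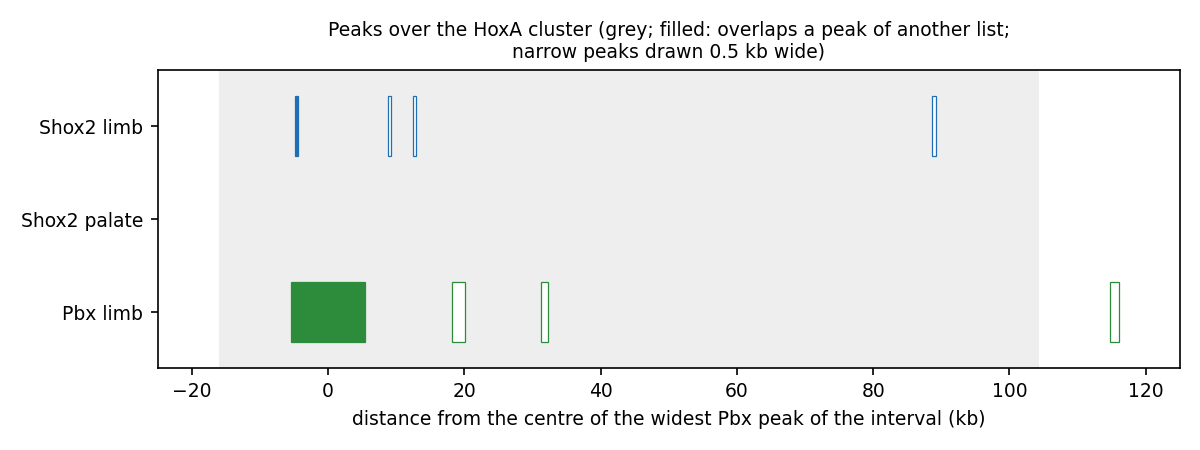
Peaks of Shox2 limb, Shox2 palate and Pbx limb (rows) over the HoxA cluster (grey), by distance in kb from the centre of the 10900 bp Pbx peak; filled boxes overlap a peak of another list. The broad Pbx peak and the 3 lower Shox2 limb peaks sit at the anterior end, palate has 0 positions, and the higher-coordinate part holds 1 Shox2 limb peak.

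Much of the higher-coordinate part of the cluster was bare in these lists. Hoxa9 to Hoxa13 lie toward that end, but which genes the empty stretches span was not determined, since no mm9 gene positions were used. From the last Pbx peak of the cluster to the last Shox2 limb peak, 56.6 kb held no peak of any list. From the same Pbx peak to the high bound of the cluster, 72.0 kb held no Pbx peak, and the next was 1312 bp wide at chr6:52230574-52231885 in the high flank, 25.7 kb above the last Shox2 limb peak of the cluster. These stretches were not ranked themselves, but longer gaps of the interval were. The interval itself held a longer gap of 147 kb in its high flank. Of all gaps between peaks of any list in the genome, 14.2% were at least as long as 64.6 kb, another gap of the interval. At least that share is thus as long as 56.6 kb, while the median gap was 15.4 kb. For Pbx peaks alone, 19.9% of gaps were at least as long as 93.5 kb, a Pbx gap of the high flank, and the median gap was 26.9 kb. A site missing from a list is not shown to be unbound, because neither depth nor the cutoff of each list is known.

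Palate Shox2 had 0 of its 7 positions in the cluster, and its nearest positions on either side, chr6:51808016 and chr6:52423245, were 615 kb apart. Of the 15068 gaps between neighbouring palate positions, 4.87% were at least that long, and the median gap was 62.9 kb. Of the 17213 windows of 120 kb with any peak, 48.6% held at least 1 palate position. An empty window of this size was thus the more frequent case in the palate list.

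**Figure D2:**
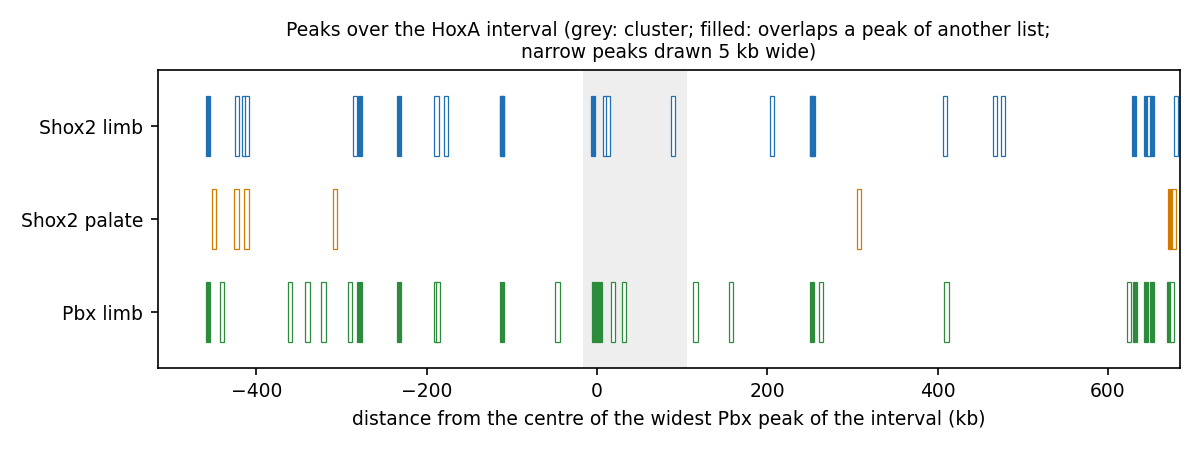
Peaks of Shox2 limb, Shox2 palate and Pbx limb (rows) over the HoxA interval, by distance in kb from the centre of the 10900 bp Pbx peak; grey marks the cluster and filled boxes overlap a peak of another list. The 11 Shox2 limb peaks on Pbx lie in both flanks (5 each) and once in the cluster, and all 7 palate positions lie outside the cluster.

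In the flanks, Shox2 and Pbx met at 8 places, 4 on either side. Over the interval, 11 of 26 Shox2 limb peaks (42.3%, exact 95% binomial interval 23.4 to 63.1%) overlapped a Pbx peak by at least 1 bp, against 26.5% of the whole Shox2 limb list. Each flank had 5 of 11 (45.5%, interval 16.7 to 76.6%), and the cluster 1 of 4. From the other side, 9 of 26 Pbx peaks (34.6%, interval 17.2 to 55.7%) overlapped Shox2, against 23.4% of the whole Pbx list. The intervals, which cover counting error only and treat peaks as independent, include the shares of the whole lists.

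The share on Pbx did not pass a test across the genome. Over 1717 windows of 1.2 Mb, of which 1 is the HoxA interval, the odds of lying on Pbx were 2.06 times those of all other Shox2 limb peaks (two-sided Fisher's exact p = 0.0767, Benjamini-Hochberg adjusted p = 0.495), while 1.69% of windows passed in that direction and 0.0582% in the other. Limb Shox2 peaks at the same places in the list, matched in bins of 10% of lines, overlapped Pbx in 30.0%. With every peak set to 200 bp, 5 of 26 (19.2%) overlapped, against 16.4% of the whole list. With both limb lists cut to the length of the palate list, 4 of 17 (23.5%) overlapped, against 24.2% of the cut list. The odds ratio was 1.04, so the higher share on Pbx was not seen there. This cut also kept the first lines in file order, which may not be a ranking.

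**Figure D3:**
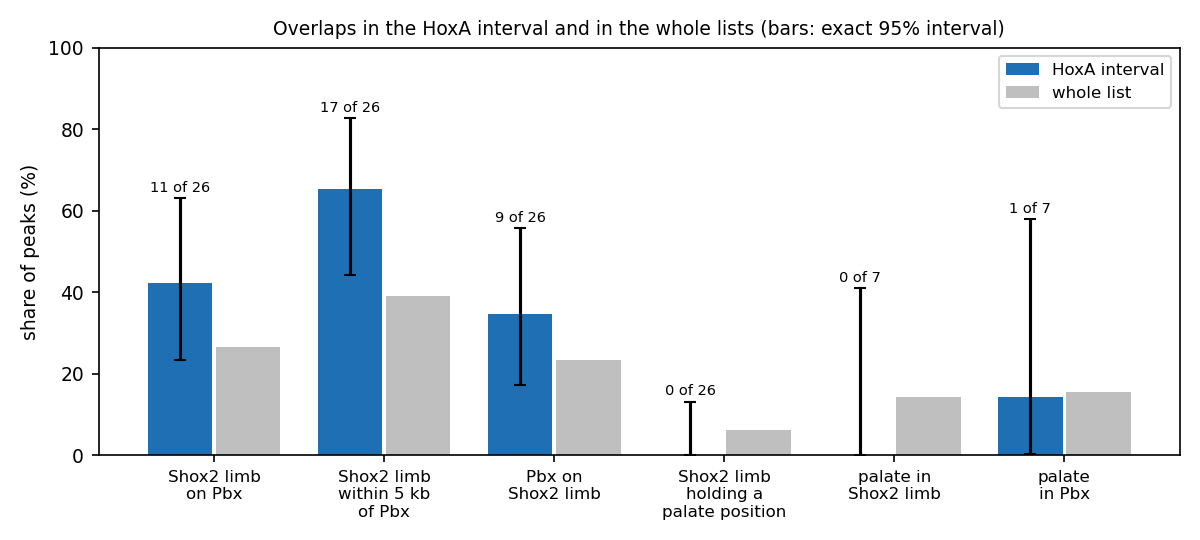
Share of peaks (%) for 6 kinds of overlap in the HoxA interval (blue, left; lines show the exact 95% binomial interval) and in the whole list (grey, right). Shox2 limb peaks on Pbx reach 42.3% against 26.5% (23.5% against 24.2% with both limb lists cut to the length of the palate list), and no Shox2 limb peak of the interval holds a palate position.

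The highest placed Shox2 limb peaks of the interval were among those on Pbx, taking file order as a ranking, an assumption that no source states. The highest was the peak of 699 bp at chr6:52004097-52004795 in the low flank, at line 388 (1.14% of lines). A second Shox2 limb peak, of 198 bp at chr6:52003832-52004029, shared the same Pbx peak of 1553 bp at chr6:52003264-52004816. This Pbx peak stood far lower in its own list, at 77.0% of lines.

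The high flank had a matching pair. Shox2 limb peaks of 355 bp at chr6:52368095-52368449 and 428 bp at chr6:52368661-52369088 lay in 1 Pbx peak of 1836 bp at chr6:52367640-52369475. They stood at 23.3 and 4.96% of the Shox2 list, and the Pbx peak at 49.3% of its list. Pbx peaks with 2 or more Shox2 limb peaks numbered 2 of 26 here (7.69%, interval 0.946 to 25.1%), against 2.83% of the whole Pbx list, a difference within counting error.

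The other shared sites of the low flank held 1 Shox2 limb peak each. At chr6:51658872-51659621 a Shox2 limb peak of 750 bp lay wholly within a Pbx peak of 1852 bp. At chr6:51836639-51837493 lay the widest Shox2 limb peak of the interval, 855 bp, of which 843 bp fell in a Pbx peak of 1179 bp. Of the whole Shox2 list, 1.86% was at least as wide. At chr6:51882911-51883289 a Shox2 limb peak of 379 bp was centred 38 bp from the centre of a Pbx peak of 617 bp, the closest pair of the interval and the narrowest of its Pbx peaks.

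Those of the high flank stood together near its upper end. A Shox2 limb peak of 354 bp at chr6:52746380-52746733 lay in a Pbx peak of 2100 bp, 1 of 292 bp at chr6:52759955-52760246 in a Pbx peak of 1304 bp, and 1 of 578 bp at chr6:52766832-52767409 in a Pbx peak of 980 bp. Another Shox2 limb peak of this group, of 175 bp at chr6:52763749-52763923, lay 2872 bp from the nearest Pbx peak. Over all 11 shared sites the centres were 270 bp apart in the median (38 to 4658.5 bp), against 142 bp over the whole list.

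Shox2 limb peaks on Pbx were wider and stood higher than those off Pbx, as they did in the whole list. Early lines of the list hold wider peaks, so width and place are not independent traits. In the interval the 11 on Pbx had a median width of 379 bp (177 to 855) and a median place of 23.3%, and the 15 off Pbx had 303 bp (172 to 380) and 45.6%. In the whole list the medians were 326 bp and 33.6% on Pbx, and 245 bp and 55.0% off Pbx. The 4 Shox2 limb peaks of at least 500 bp in the interval, 15.4% of the members against 12.1% of the list, all lay on Pbx. So did the 4 in the first 10% of lines (15.4%, against 10% by construction). The peaks of 578, 699 and 855 bp were in both sets. The share on Pbx among such peaks of the whole list was not computed, so these counts have no background beside them. In the lower 50% of lines lay 6 of the 26 members (23.1%, interval 8.97 to 43.6%), against 50% by construction.

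**Figure D4:**
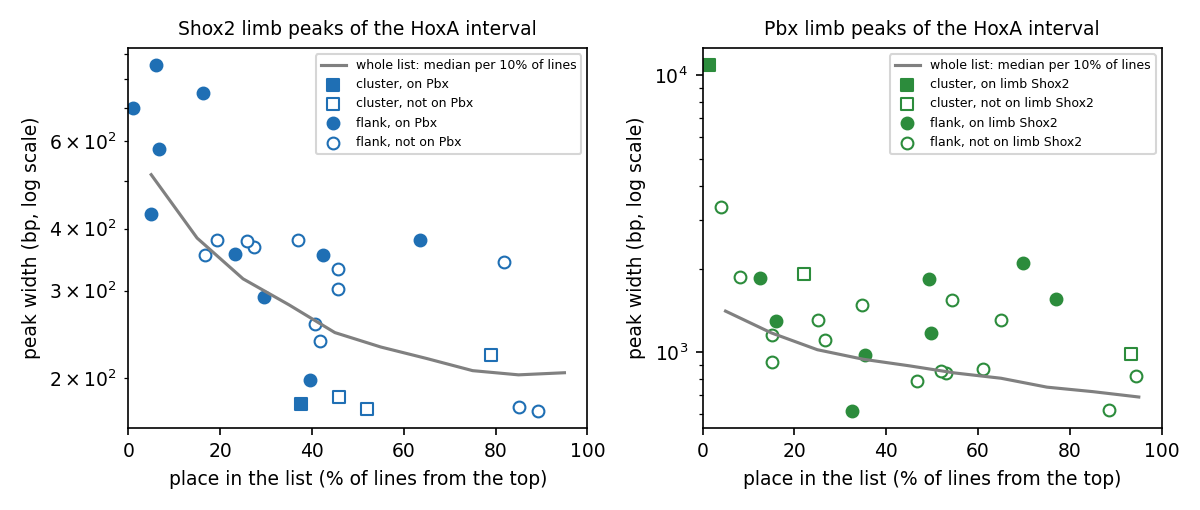
Width (bp, log scale) against place in the list (% of lines from the top) for the 26 Shox2 limb peaks (left) and the 26 Pbx peaks (right) of the HoxA interval; filled symbols overlap the other factor, squares lie in the cluster, and the grey line is the median of the whole list in bins of 10% of lines. The 10900 bp Pbx peak stands far above the line, and the Shox2 limb peaks of the cluster are narrow.

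Of the 15 Shox2 limb peaks off Pbx, 6 (40%, interval 16.3 to 67.7%) lay within 5 kb of a Pbx peak, against 16.9% of those off Pbx in the whole list, a share within the interval. The nearest was a Shox2 limb peak of 380 bp at chr6:51927147-51927526, between Pbx peaks of 823 and 619 bp, 301 and 1159 bp away from it. In the high flank a Shox2 limb peak of 367 bp at chr6:52523758-52524124 lay 1510 bp from a Pbx peak of 1155 bp. The other 9 off Pbx, among them the last Shox2 limb peak of the cluster, lay 5371 to 65235 bp from the nearest Pbx peak. Counting those on Pbx too, 17 of 26 Shox2 limb peaks (65.4%, interval 44.3 to 82.8%) lay within 5 kb of Pbx, against 39.0% of the whole list and 41.5% of the list at the same places. The distance of 5 kb was chosen after the members were seen, the interval holds more Pbx peaks than most stretches of its size, and the difference was not tested.

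Of the 26 Pbx peaks of the interval, 16 (61.5%, interval 40.6 to 79.8%) were at least 1000 bp wide, against 39.2% of the whole Pbx list, and 10 of these lay in the high flank. All 11 Pbx peaks of the high flank were wider than the median of the whole list (50% are), with widths of 980 to 3357 bp and a median of 1312 bp. In the low flank 5 of 12 (41.7%) were wider, with 617 to 1852 bp and a median of 866.5 bp. Highest placed in the low flank were the Pbx peak of 1852 bp on Shox2, named above, and a Pbx peak of 920 bp at chr6:51793984-51794903, which lay 36654 bp from the nearest Shox2 limb peak. The widest of the high flank, 3357 bp at chr6:52785957-52789313, stood at 3.92% of the Pbx list and overlapped no Shox2 limb peak. The split at the flanks was part of the definition of the interval, but this contrast was noticed in the data and has no test.

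At the deposited extents, where palate peaks are positions of 1 bp, no palate position of the interval lay in a Shox2 limb peak. Of the 7 palate positions 0 lay in a Shox2 limb peak, which allows a share of up to 42.9%, against 14.2% of the whole palate list. Of the 26 Shox2 limb peaks 0 held a palate position, which allows up to 11.5%, against 6.28% of the whole limb list. Both limits lie above the shares of the whole lists, so a lack of sharing particular to HoxA was not detectable with this number of peaks. With every peak set to 1000 bp, 2 of 7 palate positions (28.6%) met a Shox2 limb peak, against 21.0% of the whole palate list.

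Some palate positions nevertheless lay close to limb peaks. In the low flank, chr6:51704031 was 305 bp from a Shox2 limb peak of 238 bp, and chr6:51692389 was 574 bp from a Shox2 limb peak of 379 bp. In the high flank, chr6:52793263 was 2277 bp from a Shox2 limb peak of 377 bp and 1141 bp from a Pbx peak of 1868 bp. These make 3 of 7 within 5 kb of a limb Shox2 peak (42.9%, interval 9.90 to 81.6%), against 30.8% of the whole palate list. The single palate position inside a Pbx limb peak, chr6:52788878, lay in the 3357 bp peak of the high flank and stood near the end of the palate list, at 97.2% of lines. That made 1 of 7 (14.3%, interval 0.361 to 57.9%), against 15.6% of the whole palate list.

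The remaining palate positions were chr6:51665650 and chr6:51808016 in the low flank and chr6:52423245 in the high flank. They lay 6028, 23541 and 54156 bp from the nearest Shox2 limb peak. The 4 palate positions of the low flank stood at 21.1 to 50% of the palate list and the 3 of the high flank at 57.7 to 97.2%. No palate position of the interval was in the first 10% of its list (10% by construction).

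Set against the rest of the genome, the interval was well filled in limb and ordinary in palate. Among 2122 windows of 1.2 Mb with any peak, 17.8% held more than its 26 Shox2 limb peaks (median 13), 18.5% more than its 26 Pbx peaks (median 12) and 39.3% more than its 7 palate positions (median 6). Co-occupied sites numbered 11, and 8.20% of windows held more (median 3). Bases in Pbx peaks came to 44.1 kb, exceeded by 6.93% of windows, or by 13.6% when the broad peak was left out.

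The balance between lists did not pass a test across the genome. The odds of a Shox2 limb against a Shox2 palate peak were 1.57 times those in the rest of the genome (26 and 7 peaks, two-sided Fisher's exact p = 0.263, Benjamini-Hochberg adjusted p = 0.453 over 1944 windows), while 7.30% of windows passed toward limb and 11.7% toward palate. With the limb list cut to the length of the palate list, the odds ratio was 2.33 (17 and 7 peaks, adjusted p = 0.223 by the same exact test). For Shox2 against Pbx in limb the odds ratio was 1.0 (26 and 26 peaks, adjusted p = 1.0 by the same exact test over 2004 windows), while 16.9% of windows passed toward Shox2 and 18.5% toward Pbx. These tests compare libraries, of which each group has 1, and a p that misses the threshold does not show that the lists are alike here. For the cluster itself, the 4 Shox2 limb peaks and 0 palate positions, and the 1 Shox2 limb peak on and 3 off Pbx, fell below the minimum of 5 peaks per window and were not tested. The 4 Shox2 limb and 3 Pbx peaks of the cluster gave an odds ratio of 1.29 (exact test, adjusted p = 1.0 over 5430 windows). Of these small windows 0.0% passed in either direction, so the test could hardly have made a call there.

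**Figure D5:**
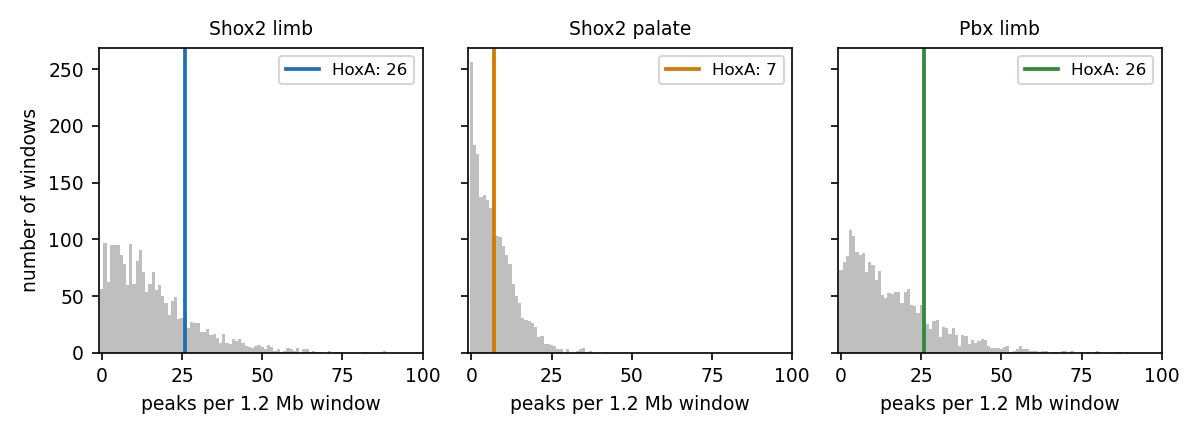
Number of 1.2 Mb windows of the genome (vertical axis) by the number of peaks they hold (horizontal axis) for Shox2 limb, Shox2 palate and Pbx limb, with the HoxA interval as a coloured line. The interval holds 26, 7 and 26 peaks, in the upper part of the limb lists and near the middle of the palate list.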

How the data were processed

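The members, stretches and lists were chosen with earlier results of these data known. The submitters' processing notes name Bowtie, MACS2 and the build mm9. The sources used here give no versions, calling settings, rule that ended the lists or removal of background regions. The deposited lists hold a chromosome, start and end per peak, with no count, height or score, so depth is unknown. Palate peaks are positions of 1 bp. Both limb lists hold 33915 peaks.

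Peaks were members by midpoint, and peaks sharing at least 1 bp counted as overlapping. Positions are printed 1-based. Place in the list is the line number as a percentage of all lines. Windows of 1.2 Mb started at position 0, and windows of 120 kb were offset by 20 kb, so that 1 window of each was the HoxA interval or cluster. Windows with at least 5 peaks were tested with two-sided Fisher's exact tests and Benjamini-Hochberg adjustment over all of them (threshold 0.05; odds ratios with 0.5 added per cell). Neighbouring peaks are not independent, which makes p-values and exact binomial (Clopper-Pearson) 95% intervals too small. A share of 0 was limited by 3 counts. The peaks named were all those of the cluster, all sites shared by lists, and the widest or highest placed of each flank; a few others were named after their values were seen. The window test was run on simulated counts drawn independently, with planted odds changes larger than those reported here. That check does not cover smaller changes or neighbouring peaks that depend on each other. Alternatives were other peak extents, list lengths, bounds, window minima and autosomes only. Limb lists were cut by keeping their first lines in file order, which is not known to be a ranking. Software was Python 3.11.15 with SciPy 1.17.1, NumPy 2.4.6, matplotlib 3.10.9 and statsmodels 0.14.6.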

Additional observations from a re-analysis of the deposited data

How the results depend on the processing

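Under 25 planned and 6 added alternatives a share stayed within its interval, a count within 1.5 times or a window test on its side of the threshold, and 4 planned ones moved a value. Staying within an interval says little here, because the intervals are wide (0.361 to 57.9% for palate positions in Pbx peaks). No window test passed at the main settings or under any alternative run, and no odds ratio other than 1.0 changed direction. The share of Shox2 limb peaks on Pbx fell to 19.2% (16.4% of the whole list) with every peak set to 200 bp, an extent that leaves out most of each Pbx peak. Palate positions in Pbx peaks fell to 0.0% with every peak set to 200 or to 1000 bp, since the 3357 bp peak then no longer reached the position. The Shox2 limb peaks of the cluster fell to 1 when the limb lists were cut to the length of the palate list, with fewer peaks by construction, and the cluster was then less dense in them (0.833 per 100 kb) than the flanks (1.48). With the same cut, 4 of 17 Shox2 limb peaks (23.5%) lay on Pbx, against 24.2% of the cut list, so the gap to the background was not seen there. This value still counted as unmoved, since the interval ran from 23.4 to 63.1%. Counted at 1000 bp the share was 42.3% (27.6% of the list), without the broad Pbx peak 38.5%, and with close Shox2 limb peaks merged 37.5% of 24. The share within a set distance of Pbx was 46.2% at 1 kb (29.9% of the list), 50% at 2 kb (32.5%), 73.1% at 10 kb (47.2%) and 76.9% at 20 kb (58.4%). These last alternatives, the merging and the broad peak's removal were chosen after seeing the data. At 1000 bp, 2 of 7 palate positions (28.6%, 21.0% of the list) met a Shox2 limb peak. The window of the cluster held too few peaks for its tests of limb against palate and of Pbx overlap, and for Shox2 against Pbx with at least 10 peaks or with shortened lists. No paired analysis was possible because the groups hold 1 library apiece, and leaving out a library would remove a group.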
